A study of Drosophila melanogaster with 12 samples.

Results

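The Rab genes of Drosophila were followed in embryos with and without maternal SHMT function. Members were all genes whose symbol in the count tables begins with Rab, Rab-RP or RabX followed by a digit. This gave 31 of the 14161 genes counted, and 22 of them had a mean of at least 50 counts in at least 1 group and were tested. Rab-RP3 and Rab-RP4 are now called Rab19 and Rab18. Rab32 and RabX1 are counted under the symbols ltd and chrw and were not members by this rule.

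SHMT embryos were laid by females whose germline carried clones homozygous for SHMT[X238], a nonsense allele of the X-linked gene CG3011 for serine hydroxymethyl transferase, the enzyme that exchanges serine and glycine and feeds the folate pool. In the paper's account the oocyte and nurse cells are homozygous mutant, while the follicle cells and the female around them are heterozygous. What the germline puts into the egg is mutant whatever the embryo's own genotype. Wild-type embryos were OregonR. Total RNA of dechorionated whole embryos was sequenced as biological triplicates in 4 groups: SHMT labelled 1.5–2.5 hr (late blastoderm), wild type labelled 1.5–2.5 hr, SHMT labelled 0–1 hr (preblastoderm) and wild type labelled 0–1 hr. Embryos were collected by time after egg lay and not staged singly, and no source says whether replicates came from separate parents, so p-values measure the spread between these libraries. The tables held 21045142 to 35106444 counts in genes per library, with a median of 26724044.

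Rab proteins are small GTPases that mark membranes. Bound to GTP they sit on a particular organelle and recruit effectors such as tethers and motors, exchange factors (GEFs) load the GTP, and GTPase activating proteins (GAPs) end the active state. In the blastoderm embryo, membrane from the Golgi and from the recycling endosome feeds the furrows that enclose the nuclei, and Rab11 with its effector Nuf is known for its part in this delivery.

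The stage labels ran against the stage markers in both genotypes. Summed CPM (counts per 1000000 counts in genes, with library sizes corrected by TMM) of 6 early zygotic cellularization genes (slam, nullo, bnk, Sry-alpha, halo, kuk) was 762 to 942 in SHMT and 909 to 1007 in wild type labelled 1.5–2.5 hr, but 8009.9 to 12704 in SHMT and 13297 to 18177 in wild type labelled 0–1 hr. The sum of 6 maternal RNAs cleared at the midblastula transition ran the other way, at 1318 to 1682 in SHMT and 1830.2 to 2101 in wild type labelled 1.5–2.5 hr, and 767 to 846 in SHMT and 624 to 756 in wild type labelled 0–1 hr. Within the maternal list osk, exu, nos and cort carried this difference. The exception was twe, a cdc25 phosphatase gene, at 249 to 289 CPM in SHMT and 273 to 288 CPM in wild type labelled 1.5–2.5 hr and 498 to 583 CPM in SHMT and 439.9 to 514 CPM in wild type labelled 0–1 hr, and bcd overlapped between the labels in SHMT. No gene of either list was at 0 in any group. The names of the deposited tables run against the labels as well. Those labelled late blastoderm carry the letter P, and those labelled preblastoderm carry a number and no P. What the letter and the number stand for is not stated. Groups are called by their labels throughout, and which collection each set of libraries came from was not settled here. If the labels were exchanged, each genotype difference would belong to the other collection and each label difference would change its sign. CG3011 RNA does not check the genotype, since a stop codon need not remove the RNA: it had 123, 91.5 and 102 CPM in SHMT and 77.5, 87.1 and 88.1 CPM in wild type labelled 1.5–2.5 hr, against 5.57, 6.49 and 7.37 CPM in SHMT and 3.38, 4.18 and 4.67 CPM in wild type labelled 0–1 hr. Of markers of other tissues, 6 chorion genes summed to at most 4.68 CPM and 5 testis genes to at most 0.797 CPM in any library. The 5 hemocyte genes summed to 4.93 to 33.6 CPM, highest in wild-type replicate 1 labelled 0–1 hr and nearly all from srp, a GATA factor gene also used in other tissues of the embryo, with nimC1 and He at 0 counts throughout. The neuronal list reached 62.9 to 134 CPM through Syx1A, a syntaxin, while elav had at most 61 counts.

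Rab RNA was first summed over all members. The 31 genes together had 2286 to 2575 CPM in SHMT and 2505 to 2549.6 CPM in wild type labelled 1.5–2.5 hr, and 3532 to 3661 CPM in SHMT and 3676 to 4039 CPM in wild type labelled 0–1 hr. Genotypes overlapped at the 1.5–2.5 hr label, and at the 0–1 hr label all SHMT sums were under all wild-type sums, which was not tested. This order depends on the scaling: as a plain share of the counts in genes, Rab genes took 0.35, 0.349 and 0.317% in SHMT and 0.326, 0.308 and 0.287% in wild type labelled 0–1 hr. Divided by exon length (of the assembly BDGP6), Rab11 had the highest level of the 22 genes in every group, with 199 ± 16.3 CPM per kb in SHMT and 197 ± 5.26 in wild type labelled 1.5–2.5 hr, and 367 ± 7.69 in SHMT and 396 ± 23.1 in wild type labelled 0–1 hr (SD, n = 3 each). Rab10 was next in every group, at 131 ± 16.5 and 138 ± 3.67 CPM per kb in SHMT and wild type labelled 1.5–2.5 hr and 301 ± 3.85 and 369 ± 26.5 in SHMT and wild type labelled 0–1 hr. In wild type labelled 0–1 hr the levels of Rab11 and Rab10 differed by about their SD. Among the libraries labelled 0–1 hr, Rab2, Rab8, Rab35 and Rab1 followed in this order in both genotypes, with Rab2 and Rab8 within their SD of each other. Among those labelled 1.5–2.5 hr, Rab23 took the place after Rab10, and Rab1 (89.3 ± 6.74 in SHMT and 88.9 ± 2.89 in wild type) and Rab8 (87 ± 7.27 in SHMT and 89.1 ± 0.749 in wild type) were within their SD of each other. At the low end stood RabX4 at the 1.5–2.5 hr label (1.5 ± 0.324 CPM per kb in SHMT and 1.51 ± 0.0831 in wild type), Rab21 in SHMT labelled 0–1 hr (1.03 ± 0.198) and Rab9 in wild type labelled 0–1 hr (0.191 ± 0.0873).

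**Figure D1:**
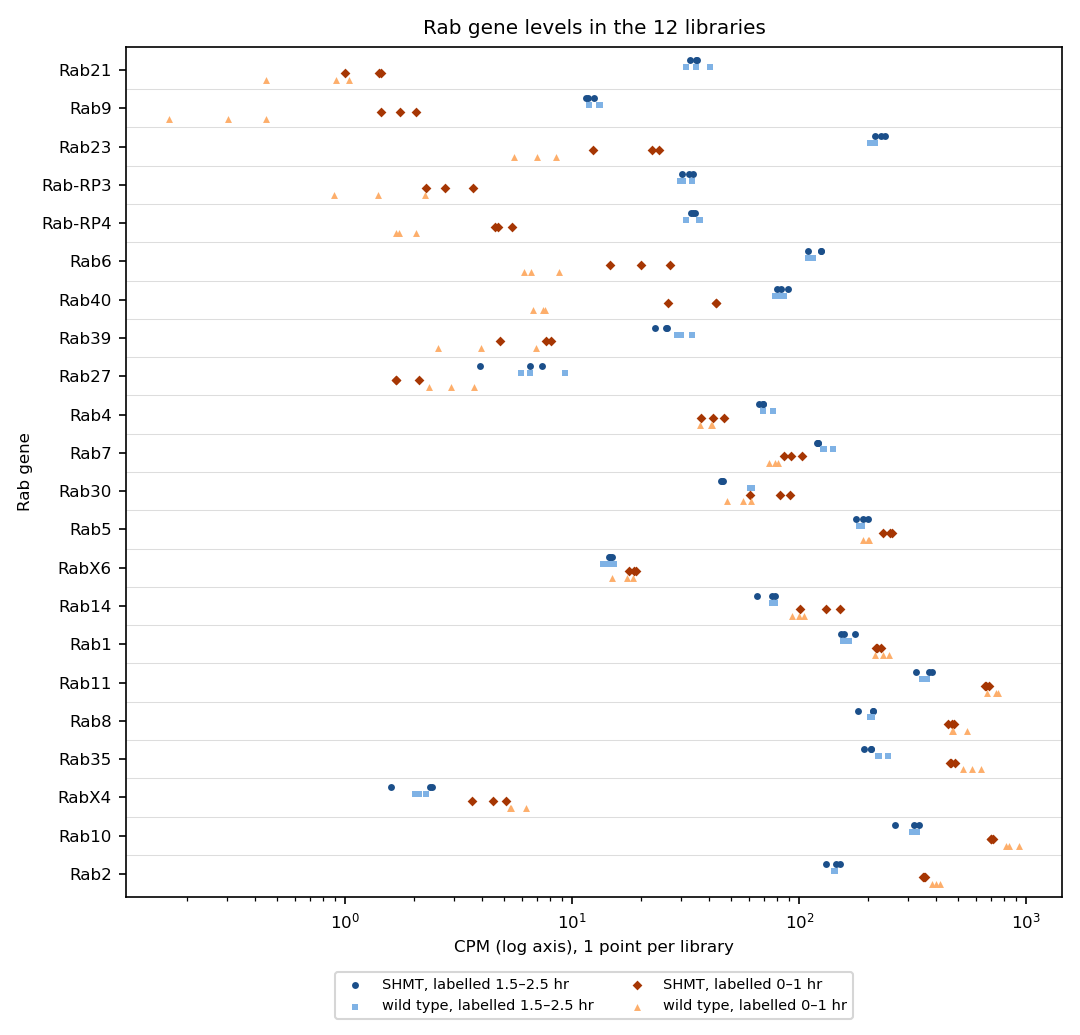
Levels of the 22 tested Rab genes in the 12 libraries, in CPM on a log axis, with 1 point per library and 1 row per gene ordered by the label difference in wild type. Genes in the upper rows, such as Rab21 and Rab23, had higher levels in the libraries labelled 1.5–2.5 hr, and genes in the lower rows, such as Rab2 and Rab10, had higher levels in those labelled 0–1 hr.

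The remaining 9 members had few or no counts. Rab9D, Rab9E, Rab9Fa, Rab9Fb and RabX5 had 0 counts in all 12 libraries, where a count of 0 allows up to 3 counts or 0.0746 to 0.167 CPM per library. Rab9Db and RabX2 had 1 count each in all, in SHMT replicate 2 and in wild-type replicate 3 labelled 0–1 hr. Rab9D, Rab9Db, Rab9E, Rab9Fa, Rab9Fb and RabX2 lie on the X chromosome in the current annotation. The Rab9 copies resemble each other, and it is not stated how reads that match several of them were counted, which makes these zeros uncertain. Rab3, the synaptic vesicle Rab, had 16 counts in SHMT and 17 in wild type labelled 1.5–2.5 hr, and 6 in SHMT and 4 in wild type labelled 0–1 hr, each over 3 libraries. Rab26, which acts at secretory vesicles in mammals, had 2 counts in SHMT and 0 in wild type labelled 1.5–2.5 hr, and 29 in SHMT and 3 in wild type labelled 0–1 hr.

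The comparison of SHMT with wild type asks which Rab RNAs differ between embryos from SHMT germline clones and OregonR embryos. The mutant chromosome was also marked with pn, and the clones were induced by heat shock. Loss of SHMT, genetic background and clone induction thus cannot be told apart here. At the 1.5–2.5 hr label no Rab gene passed an adjusted p of 0.05 in either direction, while 2.85% of all 6884 genes tested were higher and 4.15% lower in SHMT (edgeR quasi-likelihood test, Benjamini-Hochberg adjustment over all genes tested). No Rab gene passed the threshold with over 4-fold either, against 1.18% of all genes. The median log2 difference of the 22 genes was −0.032, and that of all genes −0.022. Unadjusted edgeR p was under 0.05 for 2 of the 22 members, Rab30 and Rab35, beside 1285 of all 6884 genes. DESeq2 called 1 member lower, which is given without the share of all genes it called.

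Rab30, a Golgi Rab, came closest to the threshold. It had 45, 46.2 and 45.7 CPM in SHMT against 60.9, 61.7 and 62.1 CPM in wild type labelled 1.5–2.5 hr. All SHMT libraries lay below all wild-type libraries, and the log2 difference was −0.43 ± 0.133 (SE, edgeR adjusted p = 0.0844). The adjusted p was 0.0366 with DESeq2, 0.00122 with these 6 libraries alone and 0.0127 without SHMT replicate 3 labelled 0–1 hr. Rab35, a Rab of fast recycling and cytokinesis, had 193, 206 and 206 CPM in SHMT against 245, 224 and 222 CPM in wild type. Its groups did not overlap either, at a log2 difference of −0.19 ± 0.0811 (edgeR adjusted p = 0.228). Rab39 (−0.306, edgeR adjusted p = 0.606), Rab4 (−0.118, adjusted p = 0.589) and Rab7 (−0.128, adjusted p = 0.477) were also lower in SHMT without overlap. With these 6 libraries alone the edgeR adjusted p of Rab39 was 0.0402. The share of all genes without overlap is not given, so the separation is only described.

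Rab11 had 328, 383 and 373 CPM in SHMT against 365, 363 and 347 CPM in wild type labelled 1.5–2.5 hr. SHMT libraries lay on both sides of the wild-type values, with a log2 difference of 0.012 ± 0.0765 (edgeR adjusted p = 0.97). Rab8, a Rab of exocytosis, had 182, 212 and 210.1 CPM in SHMT against 208, 204 and 207 CPM in wild type. Rab1, which carries vesicles between endoplasmic reticulum and Golgi, had 152, 175 and 157 CPM in SHMT against 156, 166 and 158 CPM in wild type. Rab5, the Rab of early endosomes, had 178, 201 and 191 CPM in SHMT against 183, 188 and 183 CPM in wild type. In each of these 4 genes the genotypes overlapped, and SHMT replicate 1 was the lowest of the 6 libraries.

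At the 0–1 hr label, 10 Rab genes were higher and 3 lower in SHMT, and 9 did not pass the test. Of all genes tested, 32.9% were higher and 25.8% lower, against 45.5% and 13.6% of the 22 Rab genes. The median log2 difference was 0.30 for the Rab genes and 0.023 for all genes. Past 4-fold were 2 Rab genes, Rab9 and Rab40, both higher, where 4.08% of all genes passed this fold in either direction. When library sizes were left without TMM correction, 14 Rab genes were higher and 0 lower, and the median of all genes moved to 0.25. The share of all genes called under this scaling is not given, so these counts are not read as a result about Rab genes. These genotype differences stood beside a lower zygotic marker sum in SHMT (8009.9, 8372 and 12704 CPM) than in wild type (18177, 13297 and 16264 CPM), and the part of this in the Rab differences was not tested. In whole embryos, fewer cells of a type and less RNA per cell cannot be told apart.

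**Figure D2:**
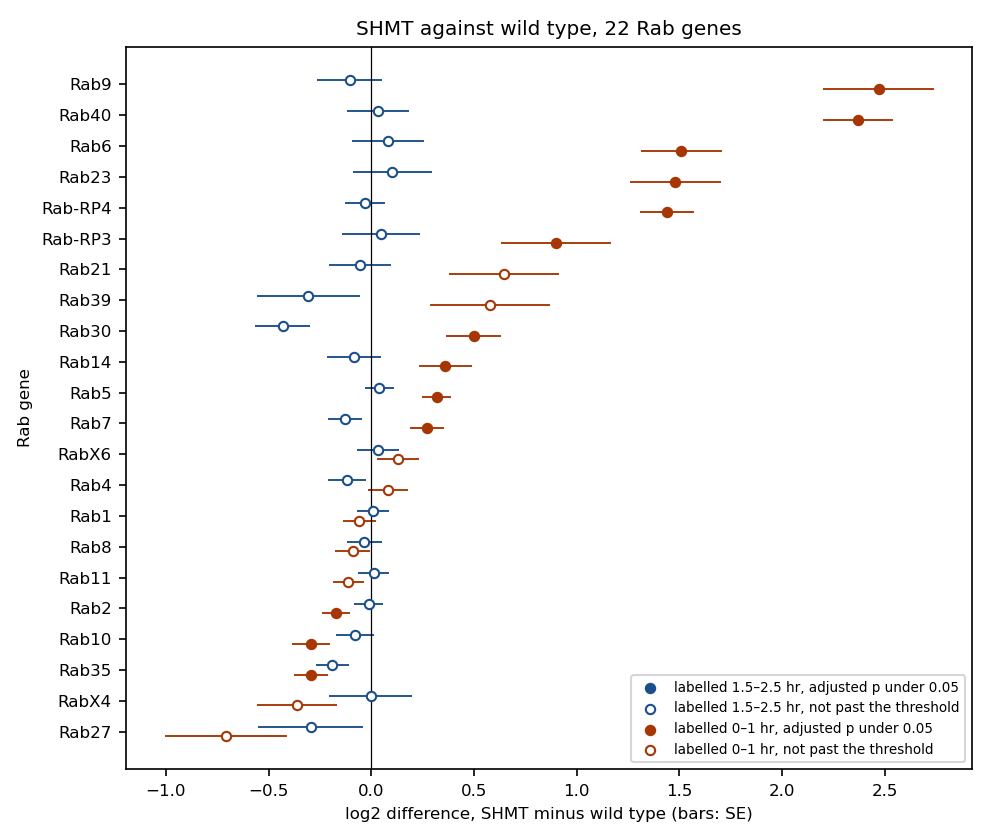
Log2 difference, SHMT minus wild type, of the 22 tested Rab genes with its SE as a bar, for libraries labelled 1.5–2.5 hr and 0–1 hr. Filled points passed an adjusted p of 0.05: none at the 1.5–2.5 hr label, and 10 higher and 3 lower at the 0–1 hr label, from Rab9 at 2.47 to Rab35 at −0.29.

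Rab9 had the largest difference of the 22 genes. This Rab, which returns receptors from late endosomes to the Golgi, had 1.43, 2.04 and 1.75 CPM in SHMT against 0.304, 0.167 and 0.447 CPM in wild type labelled 0–1 hr. Every SHMT library was higher than every wild-type library, although the wild-type values rested on 8, 3 and 9 counts. The log2 difference was 2.47 ± 0.268 (edgeR adjusted p = 2.03e-05). Rab6, a Rab of transport at the Golgi, had 20, 26.8 and 14.6 CPM in SHMT against 8.73, 6.13 and 6.61 CPM in wild type. The groups did not overlap, and SHMT replicate 3 lay nearest to wild type, with a log2 difference of 1.51 ± 0.199 (edgeR adjusted p = 7.94e-05). Rab7, the main late endosomal Rab, had 92, 103 and 85.2 CPM in SHMT against 77.9, 80.8 and 73.5 CPM in wild type, a smaller difference of 0.27 ± 0.0842 on the log2 scale (edgeR adjusted p = 0.0163). With these 6 libraries alone the adjusted p was 0.0929. Without SHMT replicate 2 it was 0.18 at an adjusted p of 0.124, and without wild-type replicate 3 the adjusted p was 0.0503.

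Rab40, a member of an unusual class of Rabs that carry a SOCS box and join ubiquitin ligases, had 43, 42.9 and 26.4 CPM in SHMT against 7.55, 6.69 and 7.45 CPM in wild type labelled 0–1 hr. Here too, SHMT replicate 3 lay below the other SHMT libraries but well above wild type. The log2 difference was 2.37 ± 0.169 (edgeR adjusted p = 1.05e-06). Rab23, which acts in planar cell polarity in the fly wing and in hedgehog signalling in the mouse, had 22.4, 24 and 12.3 CPM in SHMT against 8.46, 5.52 and 6.96 CPM in wild type. No library overlapped between the genotypes, at a log2 difference of 1.48 ± 0.221 (edgeR adjusted p = 1.97e-04). Rab-RP4, the Rab18 gene, whose mammalian product is found on lipid droplets and the endoplasmic reticulum, had 4.57, 5.44 and 4.69 CPM in SHMT against 1.67, 1.73 and 2.04 CPM in wild type. Replicates within each genotype lay close together, and the log2 difference was 1.44 ± 0.131 (edgeR adjusted p = 5.48e-06). Rab-RP3, the Rab19 gene, had 2.76, 3.67 and 2.27 CPM in SHMT against 2.24, 0.892 and 1.39 CPM in wild type. The lowest SHMT library barely exceeded the highest wild-type library, and the call (log2 difference 0.90 ± 0.268, edgeR adjusted p = 0.0132) was lost without SHMT replicate 2 (adjusted p = 0.0688) and with these 6 libraries alone (adjusted p = 0.077).

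Rab5, Rab14 and Rab30 were called higher with log2 differences of at most 0.50. Rab5 had 255, 251 and 233 CPM in SHMT against 202, 190.1 and 200.1 CPM in wild type labelled 0–1 hr. The genotypes did not overlap, and the log2 difference was 0.32 ± 0.0706 (edgeR adjusted p = 0.00254). Rab14, a Rab of endosomes and phagosomes, was called higher with overlapping groups, at 151, 131 and 101 CPM in SHMT and 92.6, 105 and 100.1 CPM in wild type. Its log2 difference was 0.36 ± 0.131 (edgeR adjusted p = 0.0332), and leaving out SHMT replicate 1, SHMT replicate 2, wild-type replicate 1 or wild-type replicate 3 ended the call, with 0.22 and an adjusted p of 0.159 without SHMT replicate 1. Rab30 had 90.6, 82.5 and 60.6 CPM in SHMT against 48.1, 61.2 and 56.2 CPM in wild type, and again SHMT replicate 3 overlapped with wild type (log2 difference 0.50 ± 0.134, edgeR adjusted p = 0.00778). Without both libraries of this label that had over 11% of reads outside genes its adjusted p was 0.061. Rab21, an early endosomal Rab, had 80 counts in the SHMT libraries and 53 in the wild-type libraries and did not pass (log2 difference 0.65, edgeR adjusted p = 0.056). Rab4, a Rab of fast recycling, did not pass either (log2 difference 0.083, edgeR adjusted p = 0.485).

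The lower calls at the 0–1 hr label were in abundant genes and were small. Rab35 had 486, 462 and 467 CPM in SHMT against 634, 524 and 576 CPM in wild type. Rab10, a Rab of polarised secretion, had 701, 697 and 714 CPM in SHMT against 932, 814 and 841 CPM in wild type. Rab2, a Rab of Golgi and lysosomal traffic, had 355, 350.2 and 359 CPM in SHMT against 415, 399.7 and 385 CPM in wild type. In each gene all SHMT libraries lay below all wild-type libraries, and wild-type replicate 1 was the highest. The log2 differences were −0.29 ± 0.0811 for Rab35 (edgeR adjusted p = 0.00897), −0.29 ± 0.0923 for Rab10 (adjusted p = 0.0176) and −0.17 ± 0.0692 for Rab2 (adjusted p = 0.0493). None of the 3 calls held with library sizes alone, where Rab2 changed sign to 0.053 and Rab35 and Rab10 were at −0.066 and −0.07. Without wild-type replicate 1 the adjusted p was 0.0366 for Rab35, 0.0649 for Rab10 and 0.129 for Rab2, and the call of Rab2 was also lost on leaving out each of 8 other libraries, that is, any but SHMT replicates 1 and 2 labelled 1.5–2.5 hr and wild-type replicate 3 labelled 0–1 hr.

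Rab11 did not pass at the 0–1 hr label. It had 663, 654 and 681 CPM in SHMT against 751, 734 and 672 CPM in wild type, so that wild-type replicate 3 lay within the SHMT range, with a log2 difference of −0.11 ± 0.0765 (edgeR adjusted p = 0.23). Rab8 had 481, 451 and 471 CPM in SHMT against 550.2, 477 and 468 CPM in wild type (log2 difference −0.091 ± 0.0841, edgeR adjusted p = 0.37). Rab1 had 218, 220.3 and 229.7 CPM in SHMT against 233, 248 and 215 CPM in wild type (log2 difference −0.058 ± 0.0791, edgeR adjusted p = 0.551). The genotypes overlapped in all 3 genes. In the current annotation 41.1% of the exon length of Rab1 overlaps an antisense RNA on the other strand, and whether counting used strand is not given in the sources used here.

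**Figure D3:**
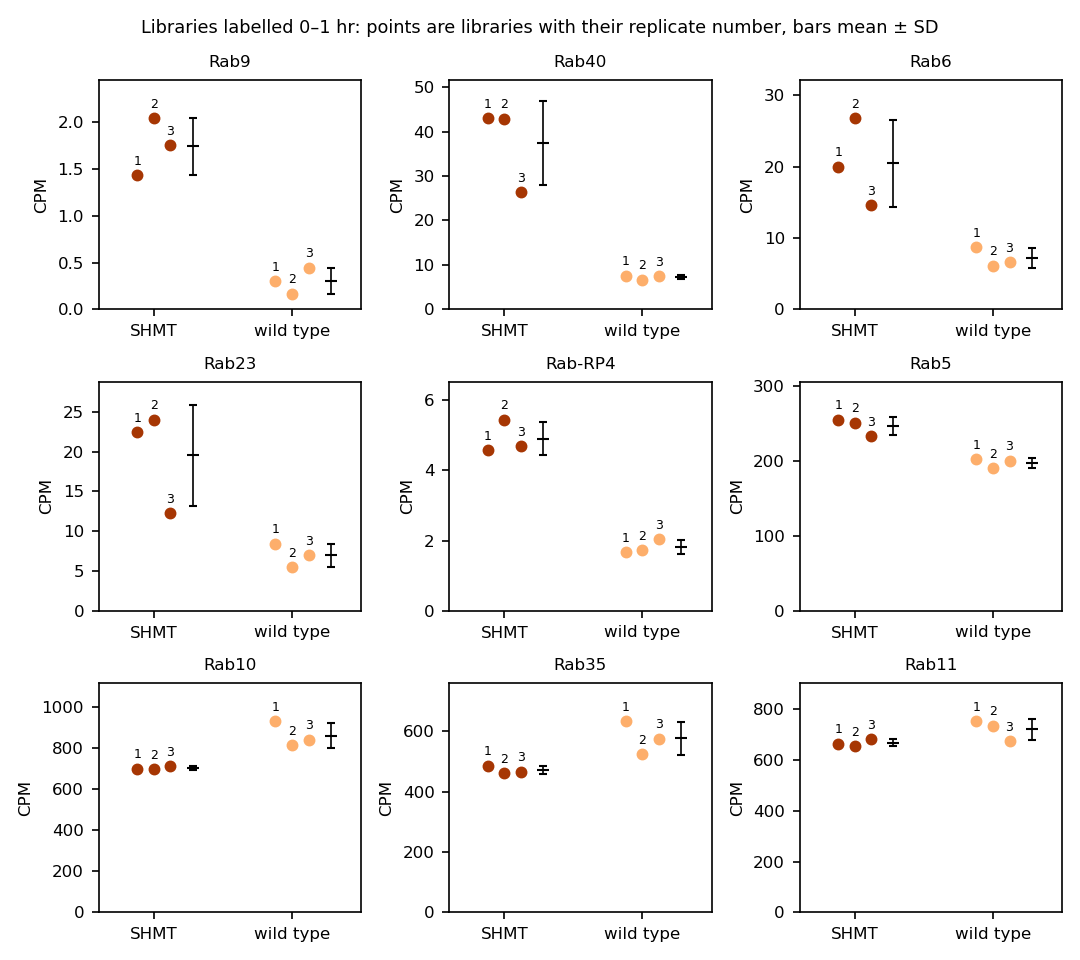
Levels in CPM of 9 Rab genes in the libraries labelled 0–1 hr, with 1 numbered point per library for SHMT and wild type and the mean ± SD (n = 3) beside them; each axis starts at 0. Rab9, Rab40, Rab6, Rab23 and Rab-RP4 were higher in all 3 SHMT libraries, with SHMT replicate 3 lowest for Rab40, Rab6 and Rab23, while Rab11 overlapped between the genotypes.

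SHMT replicate 3 labelled 0–1 hr stood apart within its group. The chi-square per degree of freedom over genes was 55.7 against replicate 1 and 60.1 against replicate 2, where sampling noise alone gives about 1, while replicates 1 and 2 gave 11.6, and it had the highest zygotic sum of the SHMT libraries (12704 CPM). The wild-type libraries of this label differed among themselves by 51 to 62.7. Among the 10 genes called higher, SHMT replicate 3 lay nearest to wild type for Rab40, Rab6, Rab23, Rab-RP3, Rab30, Rab14, Rab5 and Rab7, and not for Rab9 and Rab-RP4. Without it 11 Rab genes were higher and 2 lower, at a median of all genes of 0.012, and the share of all genes called is not given. Reads outside genes exceeded 11% in SHMT replicate 1 (11.4%) and wild-type replicate 1 (11.7%) labelled 0–1 hr, and without both libraries 10 Rab genes were higher and 0 lower. The median log2 difference of all genes was then 0.1, where the main fit gave 0.023. Its part in the loss of the lower calls was not tested, and the share of all genes called is not given.

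The label comparison asks how Rab RNAs differ between the collections within a genotype. In SHMT, the 1.5–2.5 hr label had 11 Rab genes higher and 11 lower than the 0–1 hr label, beside 42.8% of all genes higher and 44.6% lower. In wild type 11 were higher, 9 lower and 2 did not pass, where 45.4% of all genes were higher and 45.9% lower. The median log2 difference of the Rab genes was 0.017 in SHMT and 0.46 in wild type, beside −0.063 and −0.037 for all genes. Both Rab medians include Rab21 and Rab9, which could enter the test only by being higher at the 1.5–2.5 hr label and so raise them. Medians without these genes were not taken, and no Rab excess over all genes is read from them. With library sizes alone the counts were 11 higher and 8 lower in SHMT and 14 higher and 6 lower in wild type, and the median of all genes moved to 0.21 and 0.48. The share of all genes called under this scaling is not given.

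Rab21 and Rab9 reached the count minimum only in libraries labelled 1.5–2.5 hr, so they could enter the test only by being higher there, and their differences are given as a description. Both are among the 11 Rab genes counted above as higher in each genotype. Rab21 had the largest difference in both genotypes, with 34.9, 35.3 and 33.1 CPM in SHMT and 31.8, 40.6 and 34.9 CPM in wild type labelled 1.5–2.5 hr, against 1, 1.41 and 1.44 CPM in SHMT and 0.911, 0.446 and 1.04 CPM in wild type labelled 0–1 hr. The labels were far apart in every library, at a log2 difference of 4.74 ± 0.2 in SHMT and 5.44 ± 0.212 in wild type. Rab23 had 215, 238 and 228 CPM in SHMT and 205, 213 and 215 CPM in wild type labelled 1.5–2.5 hr. Set against the values at the 0–1 hr label above, this was a log2 difference of 3.53 ± 0.219 in SHMT (edgeR adjusted p = 1.84e-08) and 4.91 ± 0.238 in wild type (adjusted p = 1.49e-09). Rab-RP3 had 30.3, 34.1 and 32.8 CPM in SHMT and 30.6, 33.6 and 29.9 CPM in wild type labelled 1.5–2.5 hr, with log2 differences of 3.47 and 4.33. Rab-RP4 had 33.9, 34.7 and 33.3 CPM in SHMT and 31.7, 36.4 and 36 CPM in wild type labelled 1.5–2.5 hr, with log2 differences of 2.79 and 4.26. Rab9 had 12.4, 11.5 and 11.7 CPM in SHMT and 13.3, 13.1 and 11.9 CPM in wild type labelled 1.5–2.5 hr, with log2 differences of 2.77 and 5.35. For all 5 genes the genotypes overlapped at the 1.5–2.5 hr label. The label difference was larger in wild type by the interaction test for Rab9, Rab23 and Rab-RP4, and this test was not passed for Rab-RP3 (edgeR adjusted p = 0.0593) and Rab21 (adjusted p = 0.0917).

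Past 16-fold were 1 Rab gene in SHMT (Rab21) and 5 in wild type (Rab21, Rab9, Rab23, Rab-RP3 and Rab-RP4), where 9.47% of all genes passed this fold in SHMT and 16.4% in wild type in either direction. All these Rab genes were higher at the 1.5–2.5 hr label, the only direction open to Rab21 and Rab9 under the count minimum. Rab6, Rab40, Rab39, Rab27, Rab4 and Rab7 were higher in both genotypes too, with log2 differences between 0.37 for Rab7 and 2.55 for Rab6 in SHMT and between 0.77 for Rab7 and 3.97 for Rab6 in wild type.

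**Figure D4:**
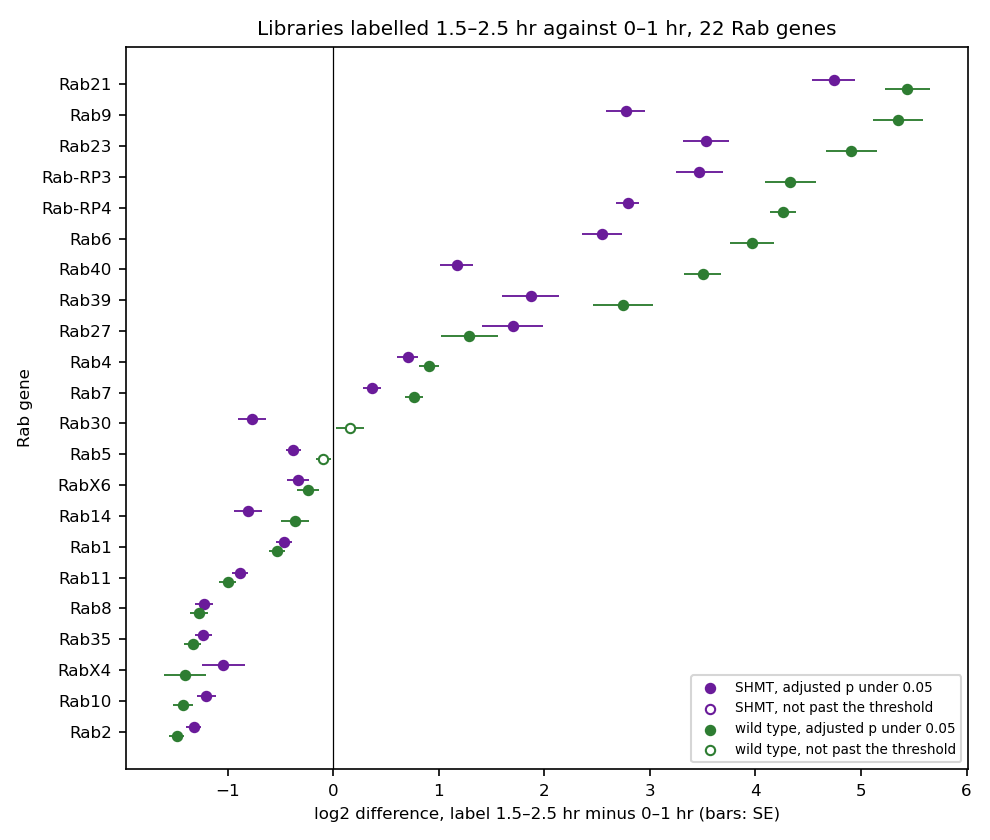
Log2 difference, label 1.5–2.5 hr minus 0–1 hr, of the 22 tested Rab genes in SHMT and in wild type, with its SE as a bar and filled points past an adjusted p of 0.05. Rab21 had the largest difference in both genotypes (4.74 and 5.44), and Rab2 the most negative (−1.32 and −1.48).

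The abundant genes Rab11, Rab8, Rab2, Rab10 and Rab35 were lower at the 1.5–2.5 hr label. Rab11 was lower in both genotypes, at a log2 difference of −0.88 ± 0.0771 in SHMT (edgeR adjusted p = 3.29e-07) and −1 ± 0.0773 in wild type (adjusted p = 7.60e-08), with no overlap of the labels in the per-library values above. Rab8 was lower by −1.22 ± 0.0854 in SHMT (edgeR adjusted p = 5.05e-08) and −1.27 ± 0.0854 in wild type (adjusted p = 2.19e-08) on the log2 scale. Rab2 had the most negative difference, with 131, 150.3 and 145 CPM in SHMT and 144, 143 and 142 CPM in wild type labelled 1.5–2.5 hr and log2 differences of −1.32 and −1.48. Rab10 (−1.2 in SHMT and −1.42 in wild type), Rab35 (−1.23 and −1.33), RabX4 (−1.04 and −1.4) and Rab1 (−0.47 and −0.53) were lower as well. With library sizes alone the call of Rab1 was lost in both genotypes (−0.19, adjusted p = 0.0573 in SHMT, and −0.015, adjusted p = 0.871 in wild type). The exons of RabX4 overlap those of Kaz on the same strand over 9.25% of their length. Rab5 was lower in SHMT (−0.38, edgeR adjusted p = 2.91e-04), and in wild type it did not pass (−0.094, adjusted p = 0.218). These calls turn on the scaling: in wild type Rab5 was called lower with RLE scaling (adjusted p = 0.0352) and DESeq2 (adjusted p = 0.0117) and higher with library sizes alone (0.42, adjusted p = 2.16e-04), and in SHMT its call was lost with library sizes alone (−0.098, adjusted p = 0.25). Rab30 was lower in SHMT (−0.77, adjusted p = 1.57e-04) and did not pass in wild type (0.16, adjusted p = 0.267), where it was called higher with library sizes alone (0.68, adjusted p = 9.84e-04). Rab14 and RabX6 were lower in both, but in wild type their calls were lost without replicate 2 labelled 0–1 hr (adjusted p of 0.0621 and 0.147), and with library sizes alone they changed sign there. In SHMT the call of RabX6 was lost with library sizes alone (−0.054, adjusted p = 0.663). RabX6 overlaps Vti1a on the opposite strand over 36.2% of its exon length.

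The interaction asks whether the genotype difference itself differs between the labels. It was taken as the log2 difference between the genotypes at the 1.5–2.5 hr label minus the one at the 0–1 hr label. By this test 0 Rab genes were higher and 8 lower, where 12.2% of all genes were higher and 26.3% lower. Unadjusted edgeR p was under 0.05 for 12 of the 22 Rab genes, beside 3301 of all 6884 genes. The median was −0.34 for the Rab genes and −0.054 for all genes. Past 4-fold were Rab9 (−2.58 ± 0.316, edgeR adjusted p = 1.18e-04) and Rab40 (−2.34 ± 0.225, adjusted p = 2.95e-05), where 3.21% of all genes passed in either direction. Rab40 shows the form of this difference: it had 80.1, 88.7 and 83 CPM in SHMT and 85.9, 81.8 and 78.4 CPM in wild type labelled 1.5–2.5 hr, where the genotypes overlapped, and 5.16-fold more in SHMT at the 0–1 hr label. Rab6 likewise had 109, 124 and 125 CPM in SHMT and 109.5, 114 and 115 CPM in wild type labelled 1.5–2.5 hr. The interaction of Rab11 was 0.12 ± 0.108 (edgeR adjusted p = 0.398), that of Rab8 0.058 (adjusted p = 0.738) and that of Rab1 0.065 (adjusted p = 0.681). The genotype difference at the 0–1 hr label, both label differences and the interaction share libraries and are not separate evidence.

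Genes that act on Rabs or with them were counted from a list of 52, of which 51 were found and 49 tested. SHMT had 1 of them higher and 1 lower at the 1.5–2.5 hr label (2.04% each, median log2 difference −0.026), beside 2.85% and 4.15% of all genes. The 0–1 hr label gave 15 regulators higher and 14 lower (30.6% and 28.6%, median −0.056), close to the 32.9% and 25.8% of all genes. With library sizes alone, the 0–1 hr label gave 19 higher and 8 lower, given without the share of all genes. Between labels 28 were higher and 16 lower in SHMT (57.1% and 32.7%, against 42.8% and 44.6% of all genes) and 29 higher and 18 lower in wild type (59.2% and 36.7%, against 45.4% and 45.9%). Of the regulators, wkd, Rbsn-5 and Pi3K59F reached the count minimum only at the 1.5–2.5 hr label, so they could enter only by being higher there. In the interaction 8 were higher and 12 lower (16.3% and 24.5%, against 12.2% and 26.3%).

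Both calls at the 1.5–2.5 hr label were small. CG14980, the Ccz1 gene, whose product is part of the exchange factor for Rab7, had 9.94 ± 0.695 CPM in SHMT and 7.27 ± 0.477 CPM in wild type (SD, n = 3 each; log2 difference 0.45, edgeR adjusted p = 0.019). GM130, a Golgi matrix protein that binds Rab1, had 60.8 ± 0.811 CPM in SHMT and 76.4 ± 3.04 CPM in wild type (log2 difference −0.33, edgeR adjusted p = 0.0245). Neither group pair overlapped, but leaving out any of 5 libraries of this label for CG14980 (all but SHMT replicate 1) or any of the 6 for GM130 ended the call, with adjusted p of up to 0.106 and 0.116.

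At the 0–1 hr label, where 32.9% of all genes were higher and 25.8% lower, 1 of the 4 genes of the shared Rab machinery was higher and 2 were lower. Gdi, which extracts Rabs from membranes and keeps them soluble, had 38.3, 46.2 and 41 CPM in SHMT against 13.3, 18 and 17.8 CPM in wild type, more than in any wild-type library (log2 difference 1.36, edgeR adjusted p = 9.08e-06). The lower genes were betaggt-II, the beta subunit of the enzyme that attaches the lipid anchor, with 4.32 ± 1.31 CPM in SHMT and 10.5 ± 2.48 CPM in wild type (log2 difference −1.29, edgeR adjusted p = 7.87e-04), and Rep, the escort that presents Rabs to it, with 80.2 ± 1.23 CPM in SHMT and 95.7 ± 6.3 CPM in wild type (−0.26, adjusted p = 0.0425). The call of Rep was lost with library sizes alone (adjusted p = 0.821), without wild-type replicate 1 (adjusted p = 0.113) and on leaving out each of the same 8 other libraries as for Rab2.

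Of 11 exchange factor genes 4 were higher and 3 lower in SHMT at the 0–1 hr label, and of 11 GAP genes 4 were higher and 2 lower. These were 36.4% and 27.3% of the exchange factor genes and 36.4% and 18.2% of the GAP genes, beside the same 32.9% and 25.8% of all genes. CG9139, the gene of the Rab5 exchange factor Rabex-5, had 7.35 ± 0.799 CPM in SHMT and 3.91 ± 0.468 CPM in wild type (log2 difference 0.92). CG14980 (0.76) and CG7787, the gene strat (0.89), were higher as well. Naming by the lowest adjusted p left out genes with lower levels in SHMT, of which some were added after their values were seen. Crag had 332 ± 100.2 CPM in SHMT and 685 ± 216 CPM in wild type, and spri 102 ± 27.5 and 243 ± 58.7 CPM. The GAP gene RN-tre had 257 ± 15 CPM in SHMT and 324 ± 15.9 CPM in wild type. Among the GAP genes called higher, CG9339, the synaptic vesicle GAP gene sky, had 26.5 ± 4.27 CPM in SHMT and 11.8 ± 0.707 CPM in wild type (log2 difference 1.17). In the current annotation 76.1% of its exon length overlaps other genes, among them CG43739 on the same strand, so its counts are uncertain. The others named by the lowest adjusted p were CG5745, the Tbc1d22 gene (0.77), with 38.4% of its exon length overlapped by sec15 and an antisense RNA on the other strand, and wkd (2.02), which was at 1.01 ± 0.382 CPM in SHMT and 0.254 ± 0.0834 CPM in wild type. The values of wkd rested on 17, 32 and 15 counts in SHMT and 5, 4 and 7 counts in wild type.

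Among 23 effector genes 6 were higher and 7 lower in SHMT at the 0–1 hr label (26.1% and 30.4%, against 32.9% and 25.8% of all genes). CG6613, the Plekhm1 gene, whose mammalian product binds Rab7, had 2.95 ± 1.02 CPM in SHMT and 0.51 ± 0.129 CPM in wild type (log2 difference 2.53, edgeR adjusted p = 2.22e-05). The myosin V gene didum, whose motor binds Rab11, had 6.89 ± 1.47 CPM in SHMT and 2.54 ± 0.22 CPM in wild type (log2 difference 1.44, edgeR adjusted p = 3.17e-05). The exocyst subunit gene sec15, whose product also binds Rab11, ran the other way, with 6.14, 7.44 and 7.06 CPM in SHMT against 12.3, 18.5 and 18.3 CPM in wild type (log2 difference −1.24, edgeR adjusted p = 3.42e-05). For comparison with Rab11 itself, its other effectors nuf and Rip11 were added after their values were seen. The gene nuf had 409, 383 and 340.4 CPM in SHMT against 438, 475 and 463 CPM in wild type, which did not overlap (log2 difference −0.28, edgeR adjusted p = 0.0223). Rip11 had 10.7, 13.9 and 12.6 CPM in SHMT against 6.49, 4.85 and 7.7 CPM in wild type (log2 difference 0.96, edgeR adjusted p = 4.17e-04). Of the 4 Rab11 effectors named, didum and Rip11 were thus higher and sec15 and nuf lower, and at the 1.5–2.5 hr label none of the 4 passed the test.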

How the data were processed

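The submitters' processing notes name CASAVA 1.8.2, Bowtie2 2.1.0 with the build dm3, and HTSeq. The deposited values are whole-number counts of reads per gene symbol, 1 table per library. Of HTSeq, neither the version nor the annotation nor the strand setting is stated in the sources used here. The 5 summary lines (4.57 to 11.7% of reads outside genes, 1.33 to 1.53% ambiguous) stayed out of library sizes and tests.

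A gene was tested when its mean reached 50 counts in 1 group or more, the study's own minimum, which left 6884 of 14161. Library sizes were corrected by TMM, and the quasi-likelihood test of edgeR 4.0.16 (limma 3.58.1, R 4.3.3) was run on 4 group means over the 12 libraries. Calls were made at a Benjamini-Hochberg adjusted p under 0.05, adjusted across the whole table, and SE is that of the log2 difference. The study's thresholds of 4-fold (genotype) and 16-fold (label) were counted too. For the interaction, of which the paper describes no test, 4-fold was chosen here. At 21045142 counts or more per library, counting error matters mainly in genes near the minimum. No replicate pair agreed within sampling noise (11.4 to 62.7 times it).

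Alternatives were RLE scaling, library sizes alone, DESeq2 1.42.0, other count minimums (any count, filterByExpr, 200), adjusted p under 0.01, only the groups compared, a replicate block, each library left out, and both libraries over 11% outside genes left out. Counts of genes called under an alternative are given without the share of all genes called under it. They show how far the calls depend on the setting and are not a result about Rab genes. Exon lengths and overlaps come from BDGP6, another assembly than dm3, so no coordinates are given. No sequences were used here. Named in every library were Rab1, Rab5, Rab8, Rab11 and the called members with the largest differences (up to 6 per genotype contrast and the interaction, 4 per label contrast), and up to 3 called regulators per list by adjusted p. The members, the lists and these rules were chosen with earlier results of these data known.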

Additional observations from a re-analysis of the deposited data

Results flagged for a closer look

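The genotype difference differed between the labels for 8 Rab genes, by the edgeR interaction test with Benjamini-Hochberg adjustment (the log2 difference between the genotypes at the 1.5–2.5 hr label minus the one at the 0–1 hr label). These were 36.4% of the 22 tested Rab genes, all lower, beside 26.3% of all genes lower and 12.2% higher. The values were −2.58 for Rab9 (adjusted p = 1.18e-04), −2.34 for Rab40 (adjusted p = 2.95e-05), −1.47 for Rab-RP4 (adjusted p = 6.74e-05) and −1.42 for Rab6 (adjusted p = 0.00164). They were −1.37 for Rab23 (adjusted p = 0.0038), −0.931 for Rab30 (adjusted p = 0.00282), −0.4 for Rab7 (adjusted p = 0.0201) and −0.281 for Rab5 (adjusted p = 0.0432).

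For Rab9, Rab40, Rab-RP4, Rab6 and Rab23 the genotypes overlapped at the 1.5–2.5 hr label, and all SHMT libraries were higher than all wild-type libraries at the 0–1 hr label. Rab30 lay lower in SHMT at the 1.5–2.5 hr label, where it did not pass, and higher at the 0–1 hr label, where it did. The interaction of Rab5 lost its call in 15 of 21 alternatives, among them DESeq2 (adjusted p = 0.0813), RLE scaling (adjusted p = 0.138) and 9 of the 12 libraries left out. That of Rab7 lost it in 4, which were RLE scaling (adjusted p = 0.0614), an adjusted p under 0.01, and leaving out SHMT replicate 2 labelled 0–1 hr (adjusted p = 0.0684) or wild-type replicate 2 labelled 1.5–2.5 hr (adjusted p = 0.058).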

How the results depend on the processing

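Of 2393 values of single Rab genes under the alternatives, 2208 kept their direction and side of the threshold, 86 lost and 40 gained a call, and 59 changed sign. In 55 of these the value passed neither before nor after the change (19 with 1 library left out), and was between −0.182 and 0.166 after it. The other 4, called under at least 1 of the settings, arose with library sizes alone: Rab2 at the 0–1 hr label (0.053), and in wild type between labels Rab14 (0.16), Rab5 (0.42) and RabX6 (0.28). Under this scaling the median log2 difference of all genes was 0.25 for genotype at the 0–1 hr label, 0.48 for label in wild type and −0.29 for the interaction, where TMM gave 0.023, −0.037 and −0.054, and the cause was not tested.

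At the 1.5–2.5 hr label (0 Rab genes lower) 1 was lower with DESeq2, 2 with only the groups compared, and 0 to 1 with a library left out (1 without SHMT replicate 3 labelled 0–1 hr). Regulators there (1 higher, 1 lower) were 2 higher and 3 lower with DESeq2, 3 and 5 with only the groups compared, 0 and 0 with any count or at an adjusted p under 0.01, and 0 to 1 in each direction with a library left out. At the 0–1 hr label (3 Rab genes lower) 0 were lower with library sizes alone, with any count and without both libraries over 11% outside genes, 1 at an adjusted p under 0.01, and 1 to 4 with a library left out (1 without wild-type replicate 1). Regulators lower there (14) were 8 with library sizes alone and 9 at an adjusted p under 0.01. In the interaction, Rab genes higher (0) were 1 with DESeq2 and 0 to 1 with a library left out (1 without SHMT replicate 1 labelled 1.5–2.5 hr), Rab genes lower (8) were 13 with library sizes alone, and regulators higher (8) were 3 at an adjusted p under 0.01 and 5 without both libraries.

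With library sizes alone the mean zygotic sums were 965 CPM in SHMT and 1123 CPM in wild type labelled 1.5–2.5 hr and 12789.5 CPM in wild type labelled 0–1 hr, and the maternal sums 1691, 2305, 768 and 566 CPM in SHMT and wild type labelled 1.5–2.5 hr and SHMT and wild type labelled 0–1 hr. The order of the labels stayed.

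With the replicate number as a block, the 0–1 hr counts were 9 Rab genes higher and 2 lower and the interaction 7 lower. At the 1.5–2.5 hr label, deviations of same-numbered SHMT and wild-type libraries correlated at −0.239, 0.53 and 0.542 for replicates 1, 2 and 3. Replicates 2 and 3 there correlated best with their own number, and replicate 1 did not. In the other contrasts the same-numbered correlations lay between −0.213 and 0.241. Whether libraries of the 1.5–2.5 hr label were collected in pairs is not stated, and the main test did not pair them. Depth limits Rab9 and Rab21 at the 0–1 hr label and the 9 members under the minimum.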

Other observations

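Rab26 lay under the count minimum but differed between groups. It had 0, 1 and 1 counts in SHMT and 0, 0 and 0 counts in wild type labelled 1.5–2.5 hr, and 5, 11 and 13 counts in SHMT and 0, 0 and 3 counts in wild type labelled 0–1 hr. With every gene that had at least 1 count in the test, its log2 difference between SHMT and wild type at the 0–1 hr label was 3.24 (edgeR adjusted p = 0.0113), higher in 3 of 3 SHMT libraries, and between labels in SHMT it was −3.99 (adjusted p = 0.00175). In the current annotation 4.59% of its exon length overlaps an antisense RNA. It was chosen for mention after its values were seen.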
